A study of Mus musculus with 20 samples.

Results

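The ligands and receptors of the tumour necrosis factor (TNF) superfamily were followed through sorted CD4 T cell fractions of mouse peripheral lymph nodes (pLN) and Peyer's patches (PP). All probes annotated to a gene symbol beginning with Tnfrsf or Tnfsf, or to Tnf, Lta, Ltb, Ltbr, Fas, Fasl, Cd27, Cd70, Cd40 or Cd40lg, were taken, and each gene was read from its brightest probe by mean log2 intensity over all arrays. This gave 40 genes, 24 receptors and 16 ligands, on 51 probes, of 30199 named genes on the array. The tests took up 34 of them (21 receptors and 13 ligands), those detected above background in both replicates of some group, out of 17246 named genes that met this condition. The rule uses gene names and detection, and was set with earlier results of these data known.

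All mice were of the strain B6.Cg-Foxp3<tm1Mal>, in which Foxp3+ cells carry GFP, and were 8 to 14 weeks old. Each sample was pooled from 8 to 15 mice of both sexes, so that 1 array stands for 1 sorted pool. For the pLN groups, the mice had been immunised subcutaneously with keyhole limpet hemocyanin (KLH) in Alum, and cells were sorted at day 12 (d12, 2 arrays per group) or at day 25 (d25, 1 array per group). Naive T cells were sorted as GFP- PD1lo GL7-, T follicular helper (TFH) cells as GFP- PD1hi GL7+, regulatory T (Treg) cells as GFP+ PD1lo GL7- and T follicular regulatory (TFR) cells as GFP+ PD1hi with or without GL7. From PP, TFH cells with GL7, TFH cells without GL7, Treg and TFR cells were sorted, with 2 arrays per group and no naive group, and the labels give no immunisation or day for them. These 12 groups and 20 arrays lay on 5 slides: replicate 1 of pLN d12 on slide 1, replicate 2 on slide 2, d25 on slide 3, and the PP replicates 1 and 2 on slides 4 and 5. The pools are bulk RNA, so that more expressing cells in a pool and more RNA per cell cannot be told apart.

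Members of the superfamily act mostly as trimers: a ligand on one cell, or released from it, clusters its receptor on another cell or on the same one. Receptors without a death domain recruit TRAF adaptors and pass the signal to NF-kB and MAP kinases, and they serve as costimulatory receptors of T cells, while receptors with a death domain can in addition start apoptosis. In the germinal centre, T cells display CD40 ligand to B cells, and receptors such as OX40, GITR and TNFR2 are known for their high level on Treg cells.

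Values are normalised fluorescence intensities on a linear scale with a floor of 20, written in the order replicate 1 and replicate 2, single d25 values in the order naive, TFH, Treg and TFR cells, and nd marks an array on which the probe was not detected above background. Intensities of different genes come from different probes and cannot be set against each other. Foxp3 measured 13409 to 35129 on the Treg and TFR arrays and 27 to 192 on all others, and all 5 T cell markers on the array were detected on all 20 arrays. Between 43.0% and 58.0% of all probes were detected per array. The arrays of slide 4 stood apart in some marker lists of other cells. There, 13 B cell markers summed to 26428 to 185374, against at most 24655 on the other slides. The sums of 7 epithelial markers were 5611 to 13221 against 632 to 2577, and those of 8 myeloid and dendritic markers 51704 to 236983 against 17270 to 40221. The B cell and myeloid sums rose in the same order over the arrays of slide 4, and whether they read different cells was not tested. Sums of plasma cell, cytotoxic T and NK cell and stromal markers on slide 4 lay within the ranges of the other slides. Differences between groups are log2 differences with the standard error (SE) of the limma fit and a p-value adjusted by Benjamini-Hochberg over all probes tested, and a call required a log2 difference of at least 1 in size with an adjusted p under 0.05.

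Across the 12 groups, limma's F test called 14 of the 34 members (41.2%), against 18.1% of all genes tested. Ligands were called in 7 of 13 cases and receptors in 7 of 21. A further 6 members passed in at least 1 of the 12 comparisons without passing the F test, and 14 passed neither. Without the 4 arrays of slide 4, the F test called 3 members and 4.52% of all genes, and with slide as a random block 22 members and 33.7% of all genes.

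Among the costimulatory receptors, Tnfrsf4 (OX40, a receptor that sustains activated T cells) was lowest in naive cells and highest in TFR cells. On d12 it measured 5732 and 6734 in naive, 61304 and 46378 in TFH, 102701 and 81967 in Treg and 154008 and 162134 in TFR cells. On d25 the same order was seen, with 6861, 44381, 87930 and 185159 in naive, TFH, Treg and TFR cells. In PP it measured 41178 and 27802 in GL7+ TFH, 40064 and 27371 in GL7- TFH, 82348 and 56647 in Treg and 138438 and 111730 in TFR cells. In each of the 3 settings, the levels in TFH, Treg and TFR cells did not overlap and stood in this order.

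Tnfrsf18 (GITR), another costimulatory receptor known from Treg cells, split the fractions by Foxp3. It measured 11793 and 13378 in naive, 15339 and 21150 in TFH, 40845 and 47920 in Treg and 43214 and 64922 in TFR cells on d12. In PP it measured 16047 and 24203 in GL7+ TFH, 17233 and 25984 in GL7- TFH, 40767 and 60943 in Treg and 48044 and 87062 in TFR cells. The d25 values were 14040, 22462, 47629 and 77813 for naive, TFH, Treg and TFR cells. Every GFP+ array was above every GFP- array, with 40767 as the lowest GFP+ value and 25984 as the highest GFP- value. Treg and TFR cells overlapped within pLN d12 and within PP.

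Tnfrsf9 (CD137, an activation-induced costimulatory receptor) formed a ladder from naive through TFH and Treg to TFR cells. On d12 it measured 1250 and 1012 in naive, 3290 and 4884 in TFH, 8715 and 6519 in Treg and 20741 and 26384 in TFR cells, and on d25 1173, 6181, 6682 and 28385. In PP the values were 5142 and 4811 in GL7+ TFH, 6717 and 6736 in GL7- TFH, 14969 and 12399 in Treg and 27280 and 36936 in TFR cells. TFR arrays lay between 20741 and 36936 and all other arrays at 14969 or less. A second probe of the gene, detected on all 20 arrays at 3702 to 9672, did not follow this pattern: its log2 differences were 0.01 for TFH and 0.22 for Treg against naive cells, 0.12 and 0.43 for TFR against Treg cells in pLN and PP, and 0.33 and 0.60 for TFR against TFH cells. None of these was called, and the statements on Tnfrsf9 rest on the brighter probe.

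Tnfrsf8 (CD30, an activation receptor of lymphocytes) was highest in TFR cells. It measured 21 (nd) and 20 (nd) in naive, 126 and 39 (nd) in TFH, 28 (nd) and 20 (nd) in Treg and 275 and 161 in TFR cells on d12 and 20 (nd), 93 (nd), 20 (nd) and 183 on d25. In PP it measured 171 and 140 in GL7+ TFH, 142 and 95 in GL7- TFH, 57 (nd) and 58 in Treg and 668 and 315 in TFR cells. It was not detected in any naive T cell array nor in pLN Treg cells, and TFR cells held the highest value on every slide.

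Tnfrsf25 (DR3, the receptor of TL1A) had its lowest values in TFH cells. It measured 11130 and 13070 in naive, 3780 and 2919 in TFH, 16523 and 16943 in Treg and 9549 and 8483 in TFR cells on d12, 12342, 3820, 17443 and 9651 on d25, and 3362 and 2831 in GL7+ TFH, 4505 and 4765 in GL7- TFH, 13516 and 16541 in Treg and 4254 and 9563 in TFR cells in PP. TFH arrays lay between 2831 and 4765 in both tissues and Treg arrays between 13516 and 17443. The PP TFR replicates were apart, 4254 on slide 4, within the range of TFH cells, and 9563 on slide 5.

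Cd27, the receptor of CD70, was detected on every array. It measured 20330 and 19580 in naive, 25341 and 23988 in TFH, 22906 and 23437 in Treg and 15507 and 19262 in TFR cells on d12, 20030, 27927, 23692 and 24203 on d25, and 37093 and 35062 in GL7+ TFH, 33496 and 32147 in GL7- TFH, 27828 and 35931 in Treg and 36224 and 38287 in TFR cells in PP. PP TFR arrays exceeded both pLN d12 TFR arrays. Tnfrsf14 (HVEM, which binds LIGHT and the inhibitory receptor BTLA) measured 733 and 628 in naive, 900 and 762 in TFH, 760 and 614 in Treg and 512 and 497 in TFR cells on d12, 822, 753, 602 and 474 on d25, and 937 and 579 in GL7+ TFH, 1138 and 573 in GL7- TFH, 637 and 387 in Treg and 793 and 438 in TFR cells in PP. It was called in no comparison, and in each of the 8 groups of 2 the array on slide 1 or 4 was above its partner on slide 2 or 5.

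**Figure D1:**
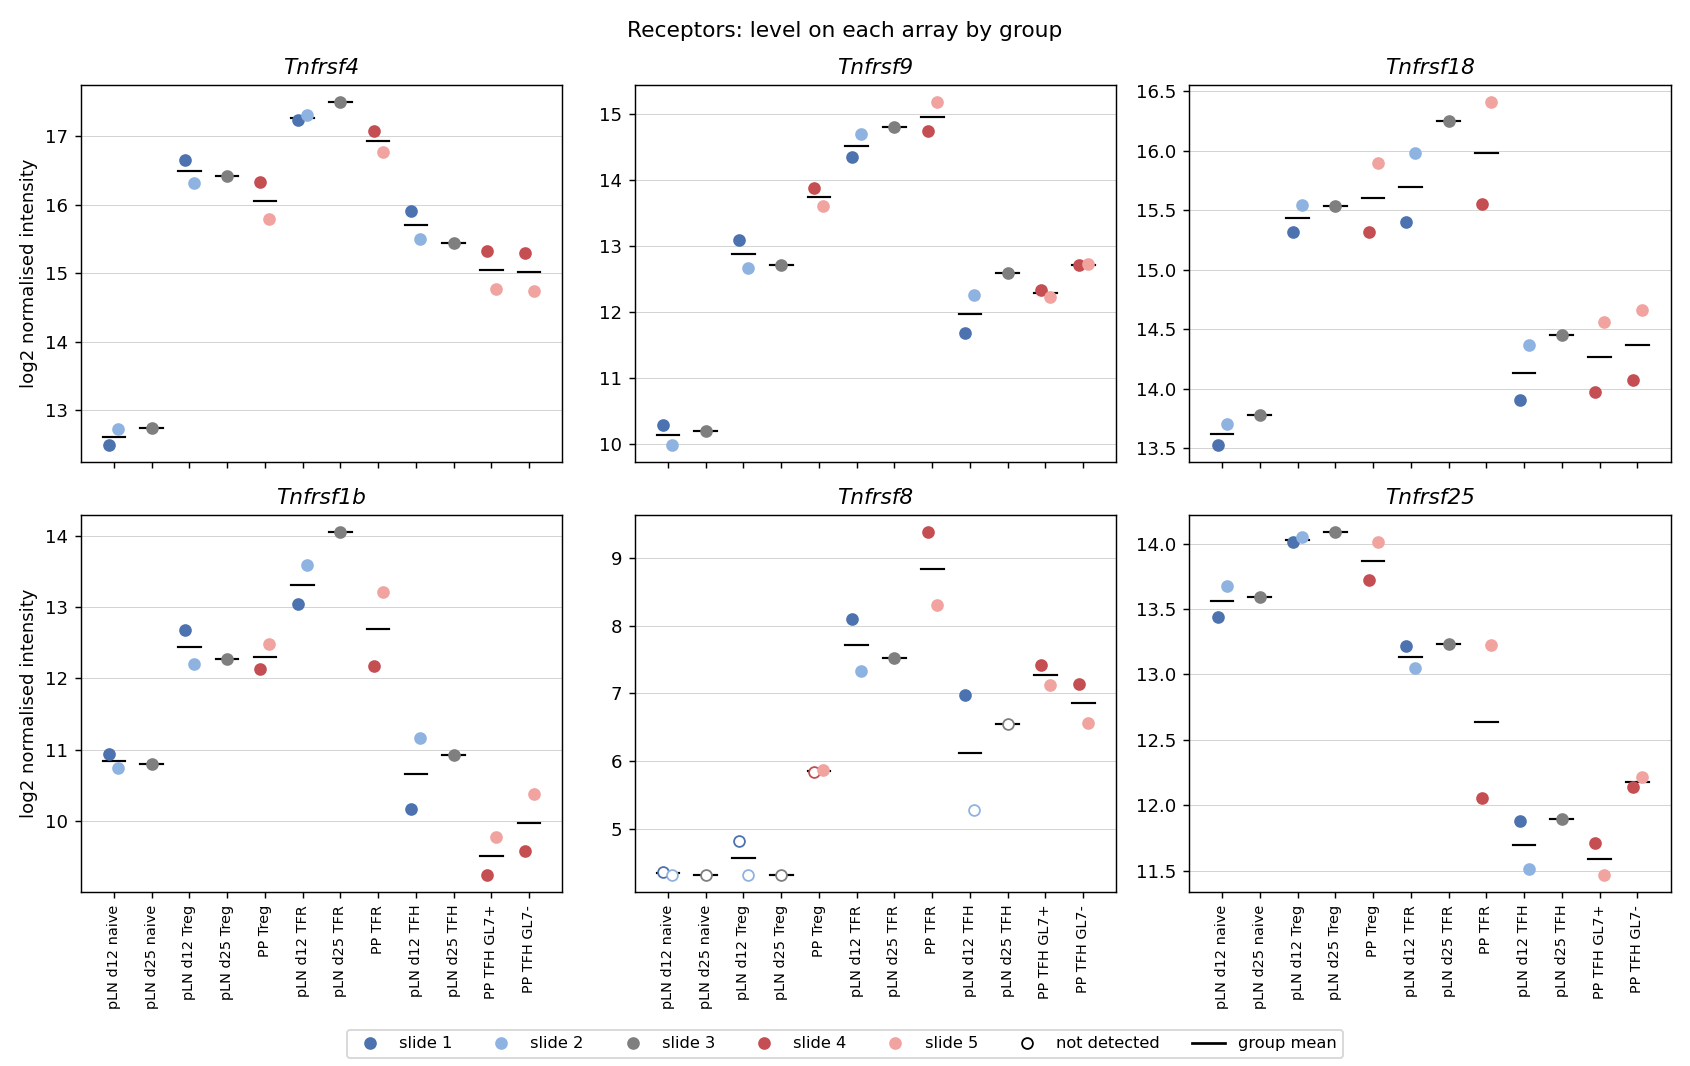
Log2 normalised intensity of 6 receptors, 1 panel per gene, with 1 point per array coloured by slide, a bar at the mean of each of the 12 groups, and open points where the probe was not detected. Tnfrsf4 and Tnfrsf9 are highest in TFR cells, Tnfrsf18 and Tnfrsf1b are higher in all GFP+ than in all GFP- fractions, and Tnfrsf25 has its lowest group means in TFH cells.

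Among the receptors of TNF and lymphotoxin, Tnfrsf1b (TNFR2, the TNF receptor known for supporting Treg cells) was high in GFP+ cells and highest in TFR cells of pLN. It measured 1963 and 1712 in naive, 1153 and 2287 in TFH, 6572 and 4727 in Treg and 8432 and 12288 in TFR cells on d12, 1777, 1951, 4953 and 17025 on d25, and 606 and 875 in GL7+ TFH, 767 and 1330 in GL7- TFH, 4491 and 5716 in Treg and 4633 and 9529 in TFR cells in PP. All GFP+ arrays, at 4491 or more, were above all GFP- arrays, at 2287 or less. Ltbr, the lymphotoxin beta receptor of stromal and myeloid cells, was at or near the floor: it measured 20 (nd) and 29 (nd) in naive, 31 (nd) and 51 (nd) in TFH, 20 (nd) and 20 (nd) in Treg and 20 (nd) and 20 (nd) in TFR cells on d12, 20 (nd), 74 (nd), 20 (nd) and 24 (nd) on d25, and 20 (nd) and 25 (nd) in GL7+ TFH, 25 (nd) and 44 in GL7- TFH, 22 (nd) and 20 (nd) in Treg and 76 and 133 in TFR cells in PP. It was detected on 3 arrays, both of PP TFR cells and 1 of PP GL7- TFH cells. Ltbr thus entered the tests only through PP TFR cells, so that its calls as higher there are partly set by this condition. Cd70, Tnfrsf8 and Tnfrsf21 likewise entered only through groups of TFH or TFR cells. Their calls as higher in these cells than in naive or Treg cells are partly set in the same way.

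Of the receptors with a death domain, Fas was detected in every fraction, at 5385 and 4844 in naive, 8463 and 8164 in TFH, 7233 and 7907 in Treg and 4647 and 5452 in TFR cells on d12, 4569, 8951, 7579 and 6732 on d25, and 8301 and 8488 in GL7+ TFH, 7568 and 8936 in GL7- TFH, 5599 and 6611 in Treg and 6419 and 6129 in TFR cells in PP, and it was called nowhere. Tnfrsf10b, the mouse TRAIL death receptor, measured 419 and 510 in naive, 249 and 365 in TFH, 560 and 613 in Treg and 725 and 887 in TFR cells on d12, 616, 317, 681 and 831 on d25, and 281 and 297 in GL7+ TFH, 327 and 325 in GL7- TFH, 500 and 539 in Treg and 491 and 575 in TFR cells in PP. All 7 TFH arrays, at 365 or less, were below all other arrays, at 419 or more. Tnfrsf21 (DR6) measured 27 (nd) and 20 (nd) in naive, 171 and 122 in TFH, 26 (nd) and 21 (nd) in Treg and 66 and 20 (nd) in TFR cells on d12, 20 (nd), 135, 20 (nd) and 34 (nd) on d25, and 59 and 58 in GL7+ TFH, 44 and 68 in GL7- TFH, 38 (nd) and 20 (nd) in Treg and 124 and 61 in TFR cells in PP. TFH cells of both tissues had it detected on all 7 arrays, and naive cells on none of 3. Tnfrsf26, a mouse receptor whose gene lies beside those of the TRAIL decoy receptors, was counted with the other and decoy receptors and not with those above. It had log2 intensities of 11.91 and 12.36 in naive, 12.52 and 12.74 in TFH, 11.52 and 11.84 in Treg and 11.31 and 11.46 in TFR cells on d12, and of 11.94, 12.48, 11.76 and 11.27 on d25. In PP its log2 intensities were 12.86 and 13.13 in GL7+ TFH, 12.78 and 13.18 in GL7- TFH, 11.93 and 12.33 in Treg and 12.38 and 12.94 in TFR cells. It was higher in TFH than in TFR cells of pLN without overlap.

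Among the ligands, Tnfsf8 (CD30 ligand) marked TFH cells. It measured 835 and 1101 in naive, 4467 and 6236 in TFH, 843 and 1244 in Treg and 601 and 954 in TFR cells on d12, 912, 5031, 871 and 950 on d25, and 6100 and 5066 in GL7+ TFH, 7069 and 5096 in GL7- TFH, 757 and 734 in Treg and 832 and 941 in TFR cells in PP. All 7 TFH arrays lay between 4467 and 7069 and all 13 other arrays between 601 and 1244. TFR cells, which share the PD1hi gate with TFH cells, measured 601 to 954, against 734 to 1244 in naive and Treg cells.

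Tnfsf13b (BAFF, a survival factor of B cells) was at the floor in naive cells and high in TFH cells. It measured 20 (nd) and 30 (nd) in naive, 1043 and 831 in TFH, 96 and 46 (nd) in Treg and 380 and 382 in TFR cells on d12, 39 (nd), 1098, 87 (nd) and 586 on d25, and 835 and 987 in GL7+ TFH, 781 and 921 in GL7- TFH, 133 and 132 in Treg and 510 and 784 in TFR cells in PP. TFR cells lay below TFH cells and above Treg cells on every slide.

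Tnfsf14 (LIGHT, a ligand of HVEM and of the lymphotoxin beta receptor) ran in the same order. It measured 288 and 570 in naive, 9858 and 8113 in TFH, 2135 and 1225 in Treg and 6190 and 5511 in TFR cells on d12, 691, 11488, 1526 and 6861 on d25, and 12895 and 9870 in GL7+ TFH, 13472 and 11470 in GL7- TFH, 1961 and 1273 in Treg and 6625 and 6575 in TFR cells in PP. TFH arrays lay between 8113 and 13472, TFR arrays between 5511 and 6861, Treg arrays between 1225 and 2135 and naive arrays between 288 and 691, with no overlap between the 4 cell types.

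Tnfsf11 (RANKL, the ligand of RANK) was likewise lowest in naive cells. It measured 162 and 430 in naive, 4128 and 7919 in TFH, 1234 and 1242 in Treg and 2665 and 3987 in TFR cells on d12, 468, 8080, 1355 and 5132 on d25, and 6343 and 9087 in GL7+ TFH, 7354 and 12419 in GL7- TFH, 2030 and 3613 in Treg and 4910 and 11286 in TFR cells in PP. Replicates differed by up to 1.41 log2 units, and TFR cells overlapped with TFH cells.

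Cd70, the ligand of CD27, was highest in follicular cells of pLN. It measured 20 (nd) and 20 (nd) in naive, 315 and 282 in TFH, 68 and 37 (nd) in Treg and 1128 and 1240 in TFR cells on d12, 20 (nd), 637, 54 (nd) and 1436 on d25, and 45 and 40 in GL7+ TFH, 41 (nd) and 65 in GL7- TFH, 26 (nd) and 20 (nd) in Treg and 121 and 148 in TFR cells in PP. It was at the floor in all naive arrays. Both follicular fractions were far lower in PP than in pLN, and TFR cells were above TFH cells on every slide. Tnfsf9 (CD137 ligand) measured 118 and 191 in naive, 580 and 939 in TFH, 250 and 325 in Treg and 693 and 1044 in TFR cells on d12, 188, 871, 268 and 1077 on d25, and 459 and 470 in GL7+ TFH, 513 and 628 in GL7- TFH, 232 and 324 in Treg and 466 and 798 in TFR cells in PP, and was lowest in naive cells.

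Of the cytokines proper, Tnf measured 528 and 817 in naive, 3916 and 1974 in TFH, 1577 and 1450 in Treg and 2000 and 1466 in TFR cells on d12, 921, 3188, 1621 and 1973 on d25, and 4346 and 2533 in GL7+ TFH, 4102 and 2259 in GL7- TFH, 1212 and 1185 in Treg and 2162 and 1598 in TFR cells in PP. Naive cells were below all others. Lta (lymphotoxin alpha) measured 3532 and 3429 in naive, 4064 and 4311 in TFH, 9729 and 10366 in Treg and 7886 and 8773 in TFR cells on d12, 3867, 6126, 11810 and 12811 on d25, and 4751 and 6075 in GL7+ TFH, 5268 and 6517 in GL7- TFH, 7085 and 11081 in Treg and 3970 and 5920 in TFR cells in PP. In pLN the GFP+ fractions were above the GFP- fractions without overlap. Ltb, the membrane partner of lymphotoxin alpha, measured 196188 and 194996 in naive, 208166 and 184516 in TFH, 219109 and 228527 in Treg and 213653 and 220826 in TFR cells on d12, 212141, 258050, 232630 and 256676 on d25, and 207454 and 186853 in GL7+ TFH, 190820 and 177918 in GL7- TFH, 216625 and 192017 in Treg and 200216 and 226506 in TFR cells in PP. Its group means spanned only 0.49 log2 units, and it was called nowhere.

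Fasl (Fas ligand, which triggers apoptosis through Fas) measured 1656 and 1399 in naive, 1046 and 2065 in TFH, 1258 and 1089 in Treg and 586 and 842 in TFR cells on d12, 1617, 1480, 1308 and 1070 on d25, and 259 and 460 in GL7+ TFH, 328 and 962 in GL7- TFH, 798 and 1256 in Treg and 95 and 290 in TFR cells in PP, with the lowest group mean in PP TFR cells. Cd40lg (CD40 ligand, the signal of helper T cells to B cells) measured 100 and 230 in naive, 175 and 262 in TFH, 31 (nd) and 144 in Treg and 38 (nd) and 134 in TFR cells on d12, 274, 321, 188 and 128 on d25, and 953 and 521 in GL7+ TFH, 766 and 501 in GL7- TFH, 57 and 60 in Treg and 282 and 109 in TFR cells in PP. PP TFH arrays, at 501 or more, were above all other arrays, at 321 or less. Its replicates differed by up to 2.20 log2 units, and no difference passed the test.

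**Figure D2:**
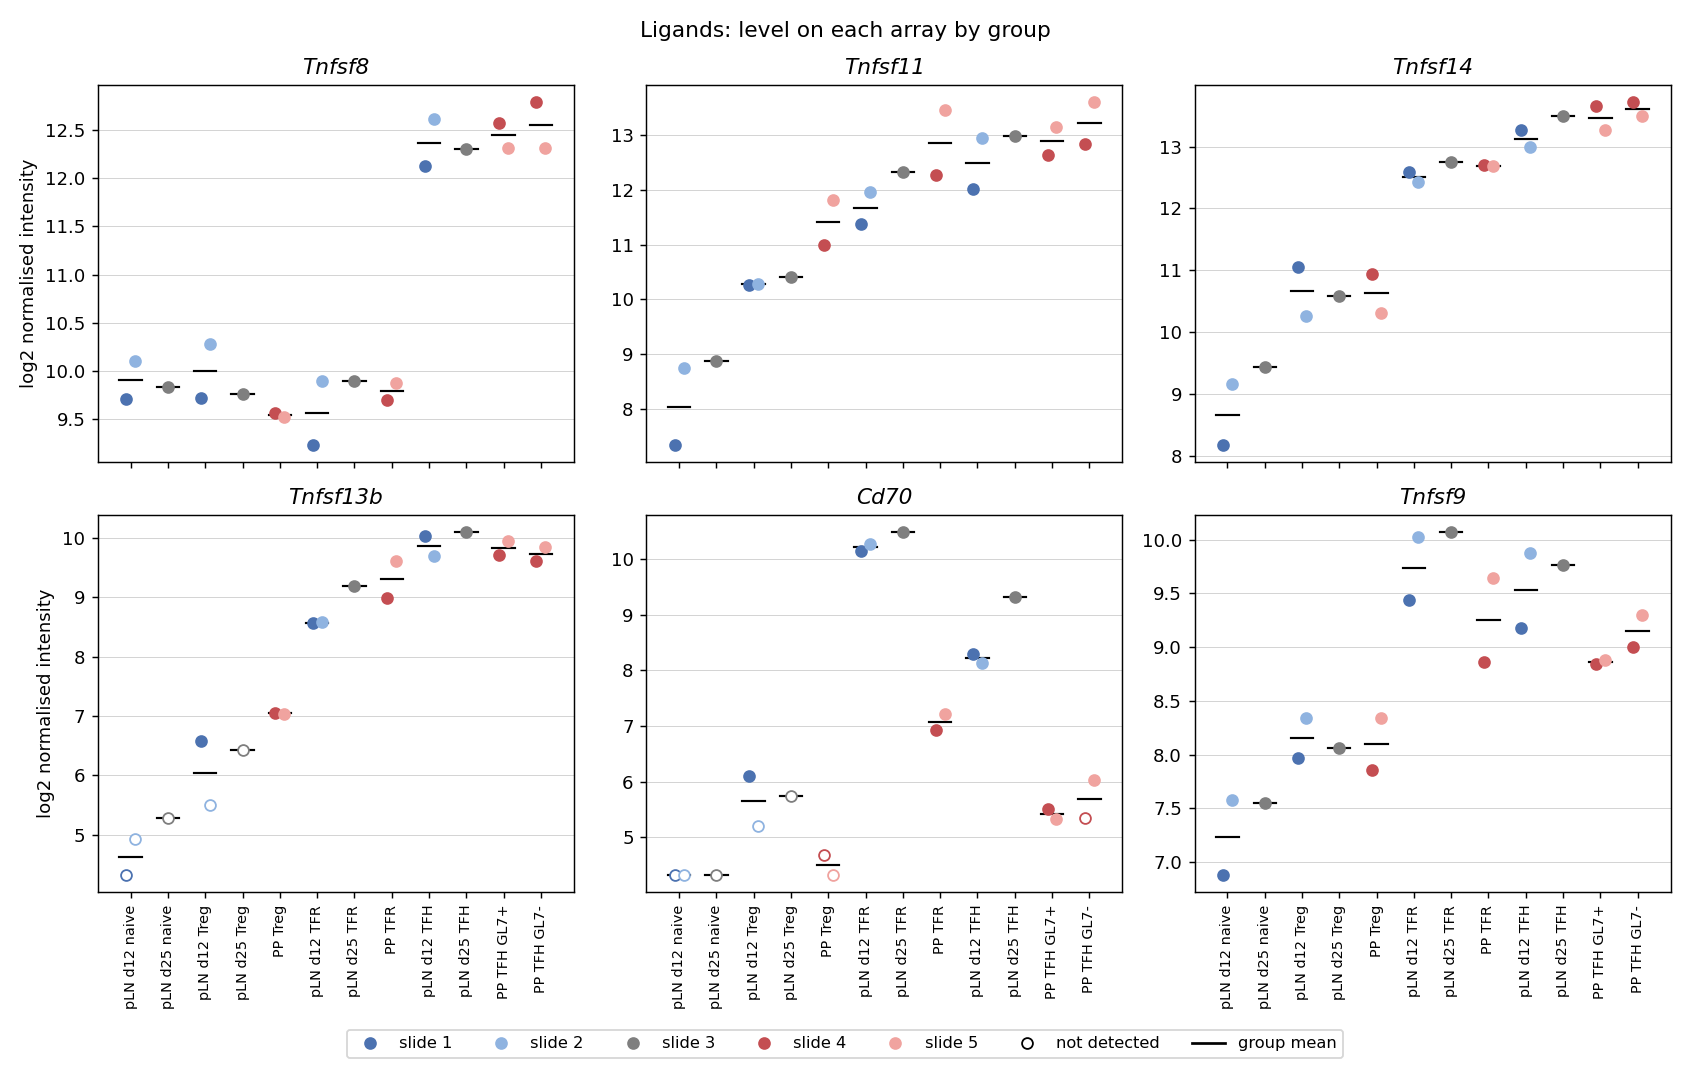
Log2 normalised intensity of 6 ligands, 1 panel per gene, with 1 point per array coloured by slide, a bar at the mean of each of the 12 groups, and open points where the probe was not detected. Tnfsf8 separates the 7 TFH arrays from the 13 others, Tnfsf14 and Tnfsf13b step down from TFH through TFR to Treg cells, and Cd70 is highest in TFR cells of pLN.

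Receptor and ligand pairs were distributed in different ways over the fractions. CD30 ligand was highest in TFH cells while its receptor CD30 was highest in TFR cells, and CD137 was highest in TFR cells while its ligand was found at overlapping levels in TFH and TFR cells. CD70 was present in follicular cells, at far lower levels in PP than in pLN, whereas CD27 was present in every fraction. For OX40 and GITR, detected on every array, the ligand genes Tnfsf4 and Tnfsf18 were detected on 3 and on 0 of 20 arrays. The ligand of DR3, Tnfsf15, was detected on 2 arrays, both of TFR cells.

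Tnfrsf11b (osteoprotegerin, a soluble decoy of RANKL) was detected on no array, and Tnfrsf19 on 1. Tnfrsf17 (BCMA, a receptor of plasma cells) was detected only on pLN d12 TFH replicate 1, at 208, the array with the highest sum of 4 plasma cell markers (120747 against 15429 to 116031 elsewhere). The next highest sum, 116031, was that of PP TFR replicate 1, where Tnfrsf17 was not detected. These genes and Tnfsf4, Tnfsf15 and Tnfsf18 were not tested.

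The first question was how TFH cells differ from naive T cells on d12. TFH cells had 11 of 34 members higher and 1 lower, against 9.42% of all genes higher and 5.57% lower, and of the 11 members 7 were ligands. Among members detected in both groups, Tnfsf14 came first with a log2 difference of 4.46 (SE 0.36, adjusted p = 2.02e-05), then Tnfsf11 with 4.44 (SE 0.57, adjusted p = 0.000348) and Tnfrsf4 with 3.101 (SE 0.28, adjusted p = 4.44e-05). The log2 differences of the others were 2.46 for Tnfsf8, 2.30 for Tnfsf9, 2.08 for Tnf and 1.83 for Tnfrsf9. A further 4 members that were called had no detected naive array, so that their folds are bounds. Tnfsf13b was higher by at least 15.1-fold (adjusted p = 6.98e-06), Cd70 by at least 4.84-fold (adjusted p = 1.58e-05), Tnfrsf21 by at least 2.35-fold (adjusted p = 0.00675) and Tnfrsf8, which was detected on 1 of 2 TFH arrays, by at least 1.14-fold (adjusted p = 0.0376). Cd70, Tnfrsf21 and Tnfrsf8 entered the tests only through groups of TFH or TFR cells, which partly sets these calls. Tnfrsf25 was the member that fell, with -1.86 (SE 0.32, adjusted p = 0.00204). The median member differed by 0.50 log2 units and the median gene by -0.10. Tnfrsf1a (TNFR1) was not called at -1.28 (SE 0.48, adjusted p = 0.0934), but its second probe was, at -1.46 (adjusted p = 0.0146). With slide as a fixed block, Tnfrsf1a was called too, which made 13 members, while the share of all genes called in either direction went from 15.0% to 19.5%. On d25, all 12 called members had the same direction, as had 99.6% of all genes called, and the 8 that were detected on both d25 arrays had sizes between 1.69 (Tnfrsf25) and 4.11 log2 units (Tnfsf11). Of these calls, the adjusted p rose to 0.05 or more (values in parentheses) for Tnfrsf21 (0.0548) and Tnfrsf8 (0.273) without pLN d12 TFH replicate 1. Tnf (0.0519) and Tnfrsf8 (0.142) did so without pLN d12 naive replicate 1 and Tnfrsf8 (0.123) without pLN d12 naive replicate 2. The call of Tnfrsf8 was also lost with 75th percentile scaling, the authors' values, normexp or no filter, and that of Tnfrsf9 with the mean over both probes.

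Treg cells, which share the naive arrays as reference with the previous comparison, had 6 members higher and none lower, against 3.04% and 0.945% of all genes. Tnfrsf4 led with 3.88 (SE 0.28, adjusted p = 4.2e-05), before Tnfrsf9 with 2.75 (SE 0.25, adjusted p = 0.000167) and Tnfsf14 with 1.996 (SE 0.36, adjusted p = 0.0103). Tnfrsf18 differed by 1.82 (SE 0.37, adjusted p = 0.019). Lta differed by 1.53 (SE 0.26, adjusted p = 0.00651). Cd70 was also called (adjusted p = 0.0362), but it was detected on 1 of 2 Treg arrays and on no naive array, and its mean in Treg cells lay under the mean of the lowest detected intensities of the naive arrays, so that no fold is given. Of the costimulatory receptors, OX40, CD137 and GITR were thus among the calls, while Tnfrsf8, Tnfrsf14, Tnfrsf25, Cd27 and Cd40 were not. All 6 had the same direction on d25, as had 98.8% of all genes called, with sizes of 1.14 (Tnfsf14) to 3.68 (Tnfrsf4) log2 units for the 5 detected on both d25 arrays. The adjusted p missed the threshold for Cd70 (0.322), Lta (0.0514), Tnfrsf18 (0.1) and Tnfsf14 (0.119) without pLN d12 Treg replicate 1. Tnfrsf18 (0.125) did so without pLN d12 Treg replicate 2 and Cd70 (0.184), Tnfrsf18 (0.139) and Tnfsf14 (0.0918) without pLN d12 naive replicate 1. Cd70 (0.155) and Tnfrsf18 (0.0788) also did without pLN d12 naive replicate 2. No filter on dim probes ended the calls of Tnfrsf18 (adjusted p = 0.0552) and Cd70 (adjusted p = 0.0817), the latter also lost with normexp and with the authors' values. Slide as a fixed block added Tnfrsf1b, Tnfsf11 and Tnfsf13b to give 9 members, and took the share of all genes from 3.98% to 6.38%.

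TFR cells were next compared with Treg cells, which sets the follicular against the non-follicular gate among GFP+ cells. In pLN d12, 6 members were higher and none lower, against 6.09% and 2.51% of all genes. Cd70 differed by 4.56 (SE 0.30, adjusted p = 7.3e-05) and Tnfsf13b by 2.53 (SE 0.35, adjusted p = 0.00144), both detected on 1 of 2 Treg arrays. Tnfrsf8, detected on neither Treg array, was higher by at least 4.17-fold (adjusted p = 0.00389). Tnfsf14 differed by 1.85 (SE 0.36, adjusted p = 0.00832). Tnfrsf9 and Tnfsf9, a receptor and its ligand, differed by 1.63 (SE 0.25, adjusted p = 0.0026) and 1.58 (SE 0.36, adjusted p = 0.0195). On d25, all 6 had the same direction, as had 99.8% of all genes called, and the 3 detected on both d25 arrays had sizes of 2.01 (Tnfsf9) to 2.17 log2 units (Tnfsf14). The adjusted p exceeded 0.05 for Tnfsf14 (0.0645) without pLN d12 TFR replicate 1. Tnfsf9 (0.142) did so without pLN d12 TFR replicate 2 and Tnfsf9 (0.126) without pLN d12 Treg replicate 1. Tnfsf14 (0.0856) and Tnfsf9 (0.0677) also did without pLN d12 Treg replicate 2. The mean over both Tnfrsf9 probes gave 0.88 (adjusted p = 0.0697). Slide as a fixed block added Tnfsf11, for 7 members, with 8.60% of all genes before and 12.3% after.

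In PP, TFR cells had 6 members higher and 2 lower than Treg cells, against 6.52% and 3.06% of all genes. Tnfrsf8, detected on 1 of 2 Treg arrays, differed by 2.99 (SE 0.53, adjusted p = 0.0044). Cd70 and Ltbr, not detected in PP Treg cells, were higher by at least 3.96-fold (adjusted p = 0.000421) and at least 2.96-fold (adjusted p = 0.00218). Tnfsf13b differed by 2.26 (SE 0.35, adjusted p = 0.00207), Tnfsf14 by 2.06 (SE 0.36, adjusted p = 0.00421) and Tnfrsf9 by 1.22 (SE 0.25, adjusted p = 0.0106). The members that fell were Fasl with -2.60 (SE 0.62, adjusted p = 0.0219) and Tnfrsf25 with -1.23 (SE 0.32, adjusted p = 0.0311). Cd70, Tnfrsf8, Tnfrsf9, Tnfsf13b and Tnfsf14 were called in both tissues, 83.3% of the calls in pLN and 62.5% of those in PP. Of these, Cd70 and Tnfrsf8 entered the tests only through groups of TFH or TFR cells, which partly sets their calls. For all genes, calls in the same direction in both tissues made up 55.1% and 49.5%. Leaving out slide 4 leaves 1 array per PP group. The log2 differences were then 2.573 for Tnfsf13b, 2.43 for Tnfrsf8, 2.368 for Tnfsf14, 1.575 for Tnfrsf9, -2.114 for Fasl and -0.79 for Tnfrsf25. None of these members kept its call in that fit. The log2 differences of Cd70 and Ltbr rest on undetected Treg levels, and no size is given. The adjusted p came to 0.05 or more for Fasl (0.162) and Tnfrsf25 (0.159) without PP TFR replicate 1. Tnfrsf9 (0.0828) did so without PP TFR replicate 2 and Tnfrsf25 (0.0678) without PP Treg replicate 1. Fasl (0.149), Tnfrsf25 (0.184) and Tnfrsf9 (0.0851) also did without PP Treg replicate 2. The mean over both Tnfrsf9 probes gave 0.83 (adjusted p = 0.0848), no filter ended the calls of Fasl and Tnfrsf25, and normexp took Ltbr under a log2 size of 1. Slide as a fixed block added Cd40lg, Tnfrsf21, Tnfsf11 and Tnfsf9, for 12 members and 14.1% of all genes.

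Against TFH cells, the other PD1hi fraction, pLN TFR cells had 7 members higher and 2 lower, against 2.92% and 2.28% of all genes. Comparisons with TFH cells share the TFR arrays with those against Treg cells. Of the 7 members that were higher, 6 were receptors. Tnfrsf1b led with 2.65 (SE 0.44, adjusted p = 0.00573), then Tnfrsf9 with 2.54 (SE 0.25, adjusted p = 0.000272) and Cd70 with 1.99 (SE 0.30, adjusted p = 0.0033). The log2 differences were 1.57 for Tnfrsf4, 1.56 for Tnfrsf18, 1.44 for Tnfrsf25 and 1.41 for Tnfrsf10b. Tnfsf8 was lower with -2.80 (SE 0.30, adjusted p = 0.000387) and Tnfrsf26 with -1.25 (SE 0.26, adjusted p = 0.0187). All 9 had the same direction on d25, as had 99.2% of all genes called, with sizes of 1.17 (Cd70) to 3.13 (Tnfrsf1b) log2 units. The adjusted p reached 0.05 or more for Tnfrsf18 (0.244), Tnfrsf1b (0.0614), Tnfrsf25 (0.0772) and Tnfrsf26 (0.0767) without pLN d12 TFH replicate 1. Tnfrsf18 (0.0606), Tnfrsf25 (0.128), Tnfrsf26 (0.0985) and Tnfrsf4 (0.0612) did so without pLN d12 TFH replicate 2 and Tnfrsf18 (0.0705), Tnfrsf25 (0.164), Tnfrsf26 (0.137) and Tnfrsf4 (0.0579) without pLN d12 TFR replicate 1. Tnfrsf18 (0.229), Tnfrsf1b (0.0592), Tnfrsf25 (0.0984), Tnfrsf26 (0.0821) and Tnfrsf4 (0.068) also did without pLN d12 TFR replicate 2. No filter ended the calls of Tnfrsf18 (adjusted p = 0.0781) and Tnfrsf25 (adjusted p = 0.0557), and slide as a fixed block raised the count from 9 to 14, with Cd40lg, Tnfrsf21, Tnfrsf8, Tnfsf10 and Tnfsf13b, and the share of all genes from 5.20% to 8.45%.

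In PP, TFR cells had 6 members higher and 1 lower than GL7+ TFH cells, against 2.46% and 1.09% of all genes. Tnfrsf1b differed by 3.19 (SE 0.44, adjusted p = 0.00247) and Tnfrsf9 by 2.67 (SE 0.25, adjusted p = 0.000246). Ltbr, not detected in TFH cells, was higher by at least 3.41-fold (adjusted p = 0.00617). Tnfrsf4, Tnfrsf18 and Cd70 differed by 1.88, 1.71 and 1.65 log2 units. Tnfsf8 was again lower, at -2.65 (SE 0.30, adjusted p = 0.000656). Cd70, Tnfrsf18, Tnfrsf1b, Tnfrsf4, Tnfrsf9 and Tnfsf8 were called in both tissues, 66.7% of the calls in pLN and 85.7% of those in PP, against 38.4% and 56.1% for all genes called in the same direction. Without slide 4, Ltbr had an adjusted p of 0.0699, and the differences were 3.45 for Tnfrsf1b (adjusted p = 0.0565), -2.43 for Tnfsf8 (adjusted p = 0.105), 1.85 for Tnfrsf18 (adjusted p = 0.11) and 1.88 for Cd70 (adjusted p = 0.145). The count was 3, with Tnfrsf25 added, against 1.64% of all genes in place of 3.55%. An adjusted p of 0.05 or more was found for Cd70 (0.0638), Ltbr (0.0616) and Tnfrsf18 (0.213) without PP GL7+ TFH replicate 1. Cd70 (0.106), Tnfrsf18 (0.0674) and Tnfrsf4 (0.0514) did so without PP GL7+ TFH replicate 2 and Cd70 (0.103), Ltbr (0.0583) and Tnfrsf18 (0.213) without PP TFR replicate 2. Slide as a fixed block raised the count from 7 to 11, with Cd40lg, Tnfrsf25, Tnfrsf8 and Tnfsf10, and the share of all genes to 6.25%. Tnfrsf18 was not called with 75th percentile scaling or without a filter, and normexp took Cd70 (0.76) and Ltbr under a size of 1.

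**Figure D3:**
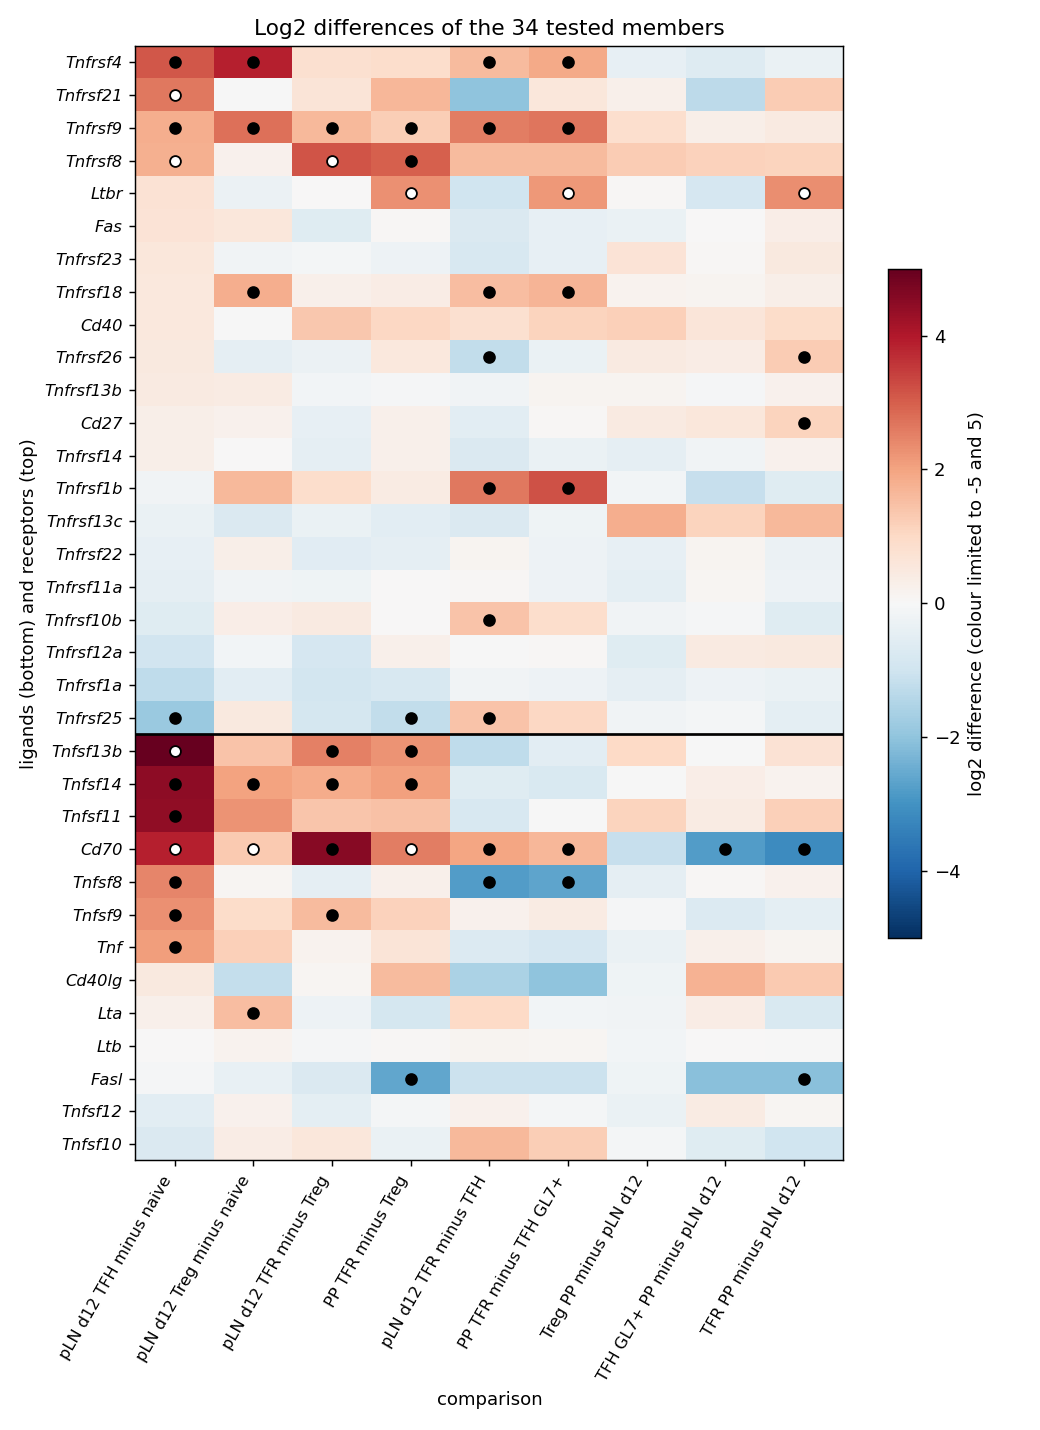
Log2 differences of the 34 tested members (receptors in the upper and ligands in the lower block, red for higher and blue for lower) in 9 comparisons, with a dot where a member was called, open where 1 of the 2 groups had no detected array and the colour rests on the floor. Tnfrsf9, Tnfrsf8, Tnfsf13b, Tnfsf14 and Cd70 carry dots for TFR against Treg cells in both tissues, and the column for Treg cells between tissues carries none.

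Each slide held 1 pool of every fraction of its tissue, so that these 6 comparisons could be read within slides. All 48 calls had the same direction on both slides of their tissue, as had all 7917 calls over all genes, so that this follows from how calls were made. Among the 156 pairs of member and comparison that were not called, 79.5% had 1 direction on both slides. Called members detected in both groups had a size under 1 log2 unit on a slide in 2 cases, both in PP TFR against Treg cells: Tnfrsf9 (0.87 on slide 4) and Tnfrsf25 (-0.79 on slide 5).

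**Figure D4:**
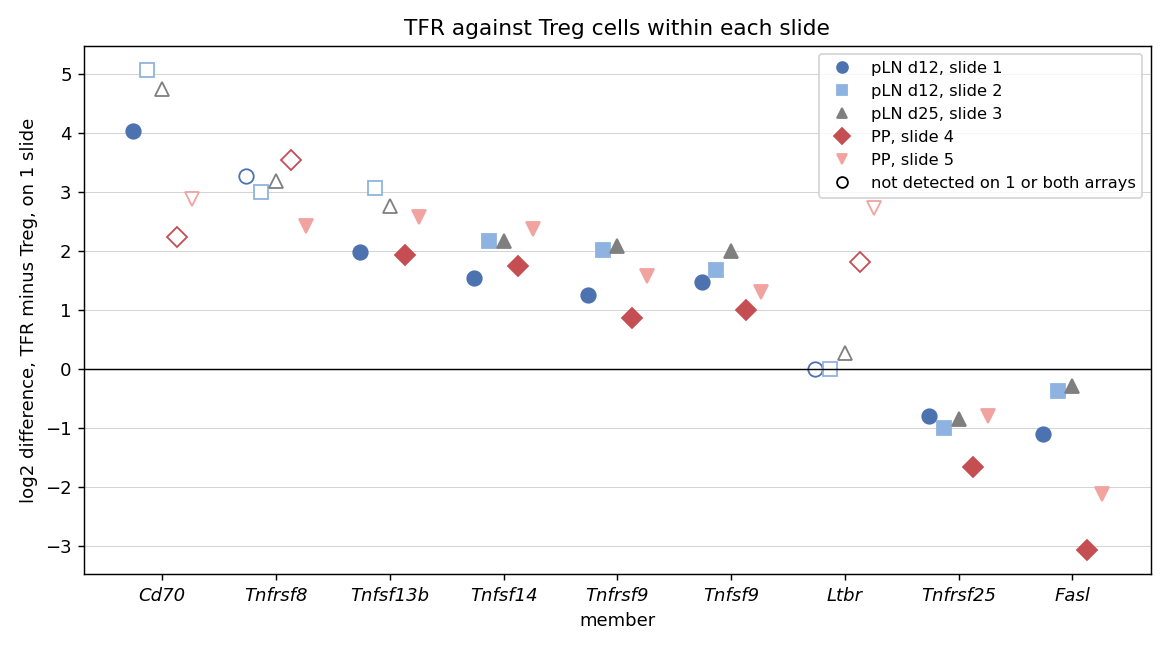
Log2 difference of TFR minus Treg cells on each of the 5 slides (1 point per slide, with 1 TFR and 1 Treg array each, open where the probe was not detected on 1 or both) for the 9 members called in this comparison in pLN or PP. Cd70, Tnfrsf8, Tnfsf13b, Tnfsf14, Tnfrsf9 and Tnfsf9 lie above 0 on all 5 slides, Ltbr lies above 1 on both PP slides alone, and Fasl is lowest on both PP slides.

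Comparisons between tissues set PP against pLN d12 for each cell type, and each slide held 1 tissue, so that tissue and slide are tied apart from the spread between the slides of a tissue. They share their arrays with the comparisons within tissues. For Treg cells limma called 0 of 34 members, against 1.92% of all genes higher in PP and 0.458% lower. An unadjusted p under 0.05 was seen for 3248 of the 22264 probes tested and for 6 of these members. The lowest adjusted p-values were those of Cd70 (0.0897), not detected in PP Treg cells and detected on 1 of 2 pLN arrays, and of Tnfrsf9 with 0.85 (SE 0.25, adjusted p = 0.129). Leaving out pLN d12 Treg replicate 2 gave 1 call, Cd70 (adjusted p = 0.0449). For GL7+ TFH cells the 1 member called was Cd70, lower in PP with -2.80 (SE 0.30, adjusted p = 0.00128), against 2.34% of all genes higher and 2.26% lower. Fasl, at -2.09 (SE 0.62, adjusted p = 0.0839), was not called.

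TFR cells had 3 members higher and 2 lower in PP than in pLN, against 5.82% and 5.37% of all genes. Ltbr, not detected in pLN, was higher by at least 1.83-fold (adjusted p = 0.00234), Tnfrsf26 with 1.27 (SE 0.26, adjusted p = 0.00949) and Cd27 with 1.11 (SE 0.17, adjusted p = 0.0023). Cd70 was lower with -3.14 (SE 0.30, adjusted p = 0.000268) and Fasl with -2.08 (SE 0.62, adjusted p = 0.0462). In TFR cells, CD27 and its ligand CD70 were thus called in opposite directions between PP and pLN d12. The mean log2 intensity of Cd27 in TFR cells was 14.077 in pLN d12, 14.563 on the single d25 array and 15.185 in PP. The criteria for a call (adjusted p in parentheses) failed for Fasl (0.27) without PP TFR replicate 1. Tnfrsf26 (0.068) did so without PP TFR replicate 2 and Cd27 (0.0276), Fasl (0.118) and Tnfrsf26 (0.0696) without pLN d12 TFR replicate 1. Fasl (0.208) also did without pLN d12 TFR replicate 2. Fasl was also not called without slide 4, with slide as a random block (adjusted p = 0.0672), with normexp or without a filter, and Ltbr and Cd27 fell under a size of 1 with normexp and with 75th percentile scaling, respectively.

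Whether the change from Treg to TFR cells differed between tissues was tested as an interaction. limma called 0 of 34 members, against 0.36% of all genes with a larger and 0.197% with a smaller change in PP. An unadjusted p under 0.05 was seen for 1818 of the 22264 probes tested and for 4 of these members. The lowest adjusted p-values were those of Cd70 (0.0875), a smaller change in PP, and Ltbr (0.0976), a larger one, and no size is given because Cd70 was not detected in PP Treg cells and Ltbr in 3 of the 4 groups. The count was 1 with normexp (Cd70), 1 with 75th percentile scaling (Ltbr) and 2 with slide as a fixed block (both), where 4.62% of all genes were called in place of 0.557%.

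Between GL7+ and GL7- TFH cells of PP, limma called 0 of 34 members, against 0% of all genes higher and 0.0058% lower. An unadjusted p under 0.05 was seen for 254 of the 22264 probes tested and for 0 of these members. By the methods' t-test it was seen for 556 probes and 3 members. The largest log2 difference was that of Tnfrsf13c, 1.52 with an SE of 1.86. The median size of a difference was 0.14 log2 units for the members and 0.12 for all genes. Between d25 and d12, averaged over the 4 pLN fractions, limma called 0 of 34 members, against 0.0174% of all genes higher and 0.029% lower on d25. An unadjusted p under 0.05 was seen for 2098 of the 22264 probes tested and for 3 of these members. Those 3 members were the ligands Lta with 0.39 (SE 0.16, adjusted p = 0.467), Ltb with 0.20 (SE 0.09, adjusted p = 0.522) and Tnfsf13b with 0.48 (SE 0.21, adjusted p = 0.526).

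Tnfrsf13c (the BAFF receptor) and Cd40, both known mainly from B cells, were higher on slide 4 than on slide 5 in all 4 PP groups. In PP, Tnfrsf13c measured 2039 and 611 in GL7+ TFH, 1004 and 151 in GL7- TFH, 5260 and 365 in Treg and 7448 and 127 in TFR cells, with the slide 4 array first in each pair. In pLN it measured 609 and 697 in naive, 1245 and 216 in TFH, 209 and 737 in Treg and 330 and 296 in TFR cells on d12 and 148, 233, 287 and 243 on d25. Of the slide 4 values, 3 were above those of all other arrays, and 1245 in pLN d12 TFH replicate 1 exceeded the remaining one. Cd40 measured 202 and 91 in GL7+ TFH, 105 and 33 (nd) in GL7- TFH, 506 and 41 (nd) in Treg and 723 and 119 in TFR cells in PP, 64 (nd) and 60 (nd) in naive, 166 and 48 (nd) in TFH, 48 (nd) and 81 (nd) in Treg and 181 and 135 in TFR cells on d12 and 20 (nd), 21 (nd), 45 (nd) and 257 on d25. On slide 4 the 13 B cell markers summed to 45091, 26428, 123514 and 185374 in the same order of groups, and on slide 5 to 15146, 7000, 15872 and 13629. Among the pLN arrays, d12 TFH replicate 1 had the highest B cell sum, 24655, and Cd40 was detected there at 166. Cd40 was highest in TFR cells on every slide and was detected on every TFR array. The B cell sums of the pLN TFR arrays were 9042 and 7779 on d12 and 7959 on d25. In pLN d12 Treg replicate 2 the sum was 18623, with Cd40 at 81 (nd). The part of B cell RNA in these levels was not tested. Neither gene was called in any comparison.

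**Figure D5:**
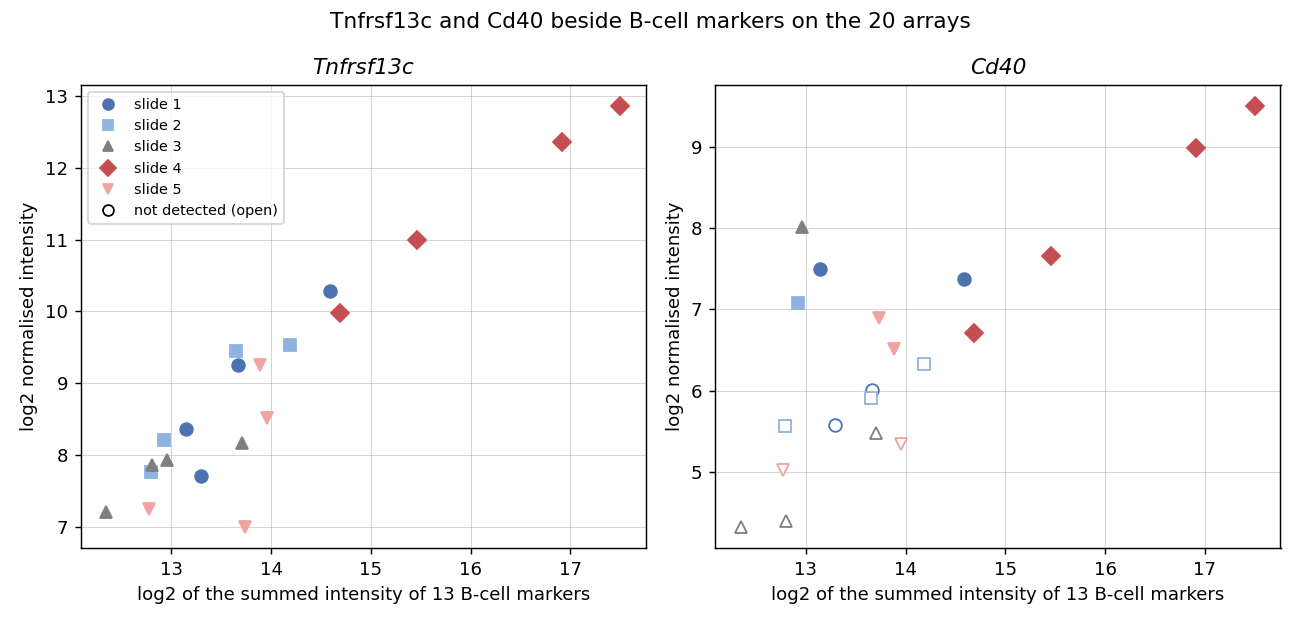
Log2 of the summed intensity of 13 B cell markers (horizontal axis) against the log2 normalised intensity of Tnfrsf13c and of Cd40 (vertical axis), 1 point per array with the symbol giving the slide and open symbols where the probe was not detected. The 4 arrays of slide 4 lie farthest to the right, at sums of 26428 or more.

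Tnfrsf13b (TACI, a BAFF and APRIL receptor of B cells) ranged from 9035 to 16551 over all arrays and was not called. Its other probes had differences of both signs, none of them called. Tnfrsf11a (RANK) was 283 to 441 on slides 1 and 4 and 128 to 213 on the other slides, with no overlap, in every one of the 8 groups of 2. These slides had 50 ng of RNA input per the labels and the others 40 ng, and slide and input cannot be told apart. Tnfsf12 (TWEAK) and its receptor Tnfrsf12a were also higher on slides 1 and 4 in 8 of 8 groups, whereas Tnfrsf18, Tnfrsf1a, Tnfrsf23, Tnfrsf26, Tnfsf9, Tnfsf10 and Tnfsf11 were higher there in 0 of 8. Tnfrsf1a measured 3538 and 5426 in naive, 1348 and 2401 in TFH, 2523 and 3591 in Treg and 1365 and 1875 in TFR cells on d12 and 872 to 2900 in PP. The decoy TRAIL receptors Tnfrsf22 and Tnfrsf23 lay between 337 and 685 and between 224 and 713. Tnfsf10 (TRAIL) ranged from 673 in a PP TFH pool to 7352 in d25 TFR cells and was not called, with replicates up to 1.40 log2 units apart.

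Several members lie side by side in the genome. By the probe positions of the array annotation (mm9), Tnfsf9, Cd70 and Tnfsf14 follow each other on chromosome 17, at 57247062 to 57247121, 57285465 to 57285524 and 57329192 to 57329251, with 38.3 and 43.7 kb between the probes. All 3 were higher in TFR than in Treg cells of pLN. On the same chromosome, Ltb, Tnf and Lta are 3.64 and 3.42 kb apart, and of these only Tnf was called for TFH and only Lta for Treg against naive cells. Tnfrsf4 and Tnfrsf18 are 12.2 kb apart on chromosome 4, at 155390639 to 155390698 and 155402941 to 155403000, and both were higher in TFR than in TFH cells of either tissue. Tnfrsf1b and Tnfrsf8, also on chromosome 4, are 80.2 kb apart. Ltbr, on chromosome 6, lies 73.5 kb from Cd27 and 55.7 kb from Tnfrsf1a.

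The upstream sequences of members called higher in TFR than in Treg cells of both tissues are printed because these members moved together. They are the 250 bases before a RefSeq transcript start in GRCm38.p6, 5′ to 3′ on the strand of the gene, with capitals at matches to GGGANNNNCC, an NF-kB type motif, and to TGANTCA, an AP-1 type motif, searched on both strands. Windows are shown for Tnfrsf8 (chr4:145315165-145315414, minus strand), for a downstream start of Tnfrsf9 (chr4:150927749-150927998, plus strand), for Tnfsf13b (chr8:10006383-10006632, plus strand) and for Tnfsf14 (chr17:57194182-57194431, minus strand), while Cd70 had no entry.
Tnfrsf8: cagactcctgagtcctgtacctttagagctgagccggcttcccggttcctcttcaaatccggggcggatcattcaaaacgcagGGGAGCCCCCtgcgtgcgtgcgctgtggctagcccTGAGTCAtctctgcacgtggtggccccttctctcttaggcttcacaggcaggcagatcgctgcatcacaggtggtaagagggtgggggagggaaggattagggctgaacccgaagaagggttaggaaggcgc
Tnfrsf9: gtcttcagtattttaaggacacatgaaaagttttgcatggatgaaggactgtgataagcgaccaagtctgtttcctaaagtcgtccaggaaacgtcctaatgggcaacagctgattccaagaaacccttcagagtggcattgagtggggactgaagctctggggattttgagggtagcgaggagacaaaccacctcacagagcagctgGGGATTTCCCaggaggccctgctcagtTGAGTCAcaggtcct
Tnfsf13b: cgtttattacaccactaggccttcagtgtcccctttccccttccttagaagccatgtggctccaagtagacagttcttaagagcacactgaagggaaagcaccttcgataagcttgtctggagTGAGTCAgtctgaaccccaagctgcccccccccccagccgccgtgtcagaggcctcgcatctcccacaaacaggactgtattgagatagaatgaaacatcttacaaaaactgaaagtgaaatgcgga
Tnfsf14: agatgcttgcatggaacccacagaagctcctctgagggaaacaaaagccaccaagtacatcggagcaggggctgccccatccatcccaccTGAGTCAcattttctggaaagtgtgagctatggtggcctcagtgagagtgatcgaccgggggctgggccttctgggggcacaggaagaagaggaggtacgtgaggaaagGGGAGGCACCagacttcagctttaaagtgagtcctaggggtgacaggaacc
Tnfrsf8, Tnfrsf9 and Tnfsf14 held both motifs in the windows shown, without overlap between them, and Tnfsf13b held the AP-1 type alone. The other annotated start of Tnfrsf9 and that of Tnfsf13b held neither. For both genes the window with a match is the one shown, so that the windows shown cannot be set against the shares of all windows. Of 32851 windows of all genes, 17.6% held the NF-kB type, 6.75% the AP-1 type and 0.935% both. Of the 40 members, 30 had a window, 8 held the first motif and 5 the second in at least 1 window. A match of letters is not a measured binding site.

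Genes taken to carry or limit signals of the receptors were followed, and whether their levels reflect such signals was not tested. The list held 46 TRAF, NF-kB and related genes, 45 of which entered the tests. In TFH against naive cells, 5 were higher (11.1%) and 3 lower (6.67%), near the 9.42% and 5.57% of all genes, led by Map3k8 (the MAP kinase kinase kinase TPL2) with 2.75 (SE 0.46, adjusted p = 0.00187), Traip with 1.95, Nfkb1 with 1.59 and Tank with 1.30. The genes that fell were Map3k14 (NIK, the kinase of the non-canonical NF-kB pathway) with -1.25 (SE 0.21, adjusted p = 0.00196), Traf4 with -1.25 and Traf6 with -1.10. In Treg against naive cells, Map3k8 was the 1 gene called (2.22%, against 3.04% of all genes higher), with 2.63 (SE 0.46, adjusted p = 0.00918). TFR cells of pLN had Traip higher (2.32) and Nfkbiz (-1.57) and Map3k14 (-1.07) lower than Treg cells, and TFR cells of PP had Traf6 lower (-1.22). These counts are 2.22% higher and 4.44% lower in pLN and 2.22% lower in PP, against 6.09%, 2.51% and 3.06% of all genes. limma called 0 genes of the list between TFR and TFH cells of pLN and of PP, with 8 and 5 at an unadjusted p under 0.05, 0 in Treg cells between tissues (7), 0 by GL7 (0) and 0 between days (4). In the same order, 3517, 2548, 3248, 254 and 2098 of the 22264 probes tested had an unadjusted p under 0.05. Traip was lower in PP than in pLN in TFH (-1.64) and TFR cells (-2.48), where Nfkbiz was higher (1.02), each 2.22% of the list against 2.26%, 5.37% and 5.82% of all genes, and the interaction was called for Traip alone (-1.96). The median log2 difference of the list lay between -0.09 and 0.20 over the 12 comparisons.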

How the data were processed

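RNA of 20 sorted, pooled samples was labelled and hybridised by the authors to single-colour Agilent arrays, 1 array per sample, with 4 features printed per probe. The deposited scanner files (Feature Extraction 10.7.3.1 per the submitters' processing notes) hold the intensity of each feature after background subtraction and detrending, with quality marks. The series matrix deposited by the authors holds 1 intensity per probe after quantile normalisation, with the 75th percentile set to 1500 and a floor of 20.

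Intensities were rebuilt from the scanner files: the geometric mean over the features of a probe, without outlier flags, features outside 1.42 times the interquartile range or with a pixel coefficient of variation above 0.5 (13230 to 19426 of 157716 features per array), was quantile normalised, scaled and floored in the same way and taken to log2. The median difference from the authors' values was 0.0347 to 0.0362 per array. A probe was detected where at least 3 of 4 features were well above background, and 22264 probes detected on both arrays of a group of 2 were tested. The number of arrays limits the precision, no probe was saturated, the lowest detected intensity was 20 to 144 per array, and the median local background was 24 to 78 except for pLN d12 TFR replicate 2 (268).

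One limma model (3.58.1 in R 4.3.3) of 12 group means was fitted to all 20 arrays, with 8 residual degrees of freedom, and single d25 arrays were assumed to vary like groups of 2. P-values are two-sided, adjusted by Benjamini-Hochberg within each of the 12 comparisons. They rest on the spread between the 2 arrays of a group. These arrays differ in pool, slide, scan day and RNA input (50 against 40 ng), and the spread cannot be split between them. The main model treats the arrays of a slide as independent, although some genes shifted together on a slide. The F test was called at p under 0.001 and adjusted p under 0.005. For a group without detection on either array, the fold is a bound ("at least") computed with those arrays raised to their lowest detected intensity. Shares of all genes called are over 17246 genes, each read from its brightest tested probe.

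By rule, the text gives array values for each member called anywhere and for the detected costimulatory genes, and names the called members of each comparison by size, with up to 4 signalling genes per direction. Probe positions are those of the array annotation (mm9). RefSeq tables of GRCm38.p6 gave upstream sequences and were used to check symbols (27597 probes matched, 2058 with another symbol). The members and lists were chosen with earlier results of these data known. Replicates were numbered in order of deposition and no label pairs them. The alternatives were normexp background correction, 75th percentile scaling, the authors' values, no filter on dim probes, slide as a fixed or random block, the compared groups alone, the mean over a gene's probes, each array left out in turn, slide 4 left out, and the methods' t-test.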

Additional observations from a re-analysis of the deposited data

How the results depend on the processing

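Of 54 calls of a member in a comparison, 8 held under every alternative tried, 13 were lost only when the compared groups alone entered the model, 33 were lost under another alternative, and 0 changed direction. Of 354 pairs of member and comparison without a call, 26 gained one, 20 of these with slide as a fixed block. With the compared groups alone, which leaves few residual degrees of freedom, the number of members called fell from 12 to 7 for TFH against naive cells, from 6 to 0 for Treg against naive cells, from 6 to 1 and from 8 to 0 for TFR against Treg cells in pLN and PP, from 9 and 7 to 0 for TFR against TFH cells in both tissues, from 1 to 0 for TFH and from 5 to 1 for TFR cells between tissues. In the 5 of these comparisons with no member left, 0 of all probes were called, so that the zeros say nothing about the members. In the other 3, 6.85%, 2.85% and 3.15% of all genes were called in place of 15.0%, 8.60% and 11.2%.

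Leaving out 1 array at a time gave 10 to 12 members for TFH and 2 to 6 for Treg against naive cells, 4 to 5 and 5 to 8 for TFR against Treg cells in pLN and PP, 4 to 6 and 4 to 8 for TFR against TFH cells, and 0 to 1 for Treg and 3 to 6 for TFR cells between tissues. Without slide 4, the counts in PP were 2 for TFR against Treg and 3 for TFR against TFH cells, while the share of all genes called fell from 9.57% to 4.74% and from 3.55% to 1.64%. The F test then called 3 members in place of 14, and 4.52% of all genes in place of 18.1%. As a random block, slide gave 22 members and 33.7% of all genes by the F test. normexp gave 3 for TFR cells between tissues, and 1 for the interaction, as did 75th percentile scaling. The cause of these changes was not tested.

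The labels give no replicate numbers, and arrays were paired by slide, since each slide held 1 pool of every fraction of its tissue. With slide as a fixed block, the paired fit, the number of members called went from 12 to 13 for TFH and from 6 to 9 for Treg against naive cells, from 6 to 7 and from 8 to 12 for TFR against Treg cells in pLN and PP, from 9 to 14 and from 7 to 11 for TFR against TFH cells, and from 0 to 2 for the interaction, and no call was lost. The share of all genes called rose as well, in this order from 15.0% to 19.5%, 3.98% to 6.38%, 8.60% to 12.3%, 9.57% to 14.1%, 5.20% to 8.45%, 3.55% to 6.25% and 0.557% to 4.62%. Levels near the floor, as for Cd70 in naive cells and Ltbr, are not resolved on these arrays. Groups with both arrays at the floor, as d12 naive cells for Cd70 and pLN d12 Treg and TFR cells for Ltbr, show no spread. They lower the pooled spread of these genes, and with it their adjusted p-values.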
